A study of Mus musculus with 2 samples.

Results

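Of 3728 cells in the GFP+ gate of the LHX4::GFP mouse retina at E14.5, 129 (3.46%, 95% exact Clopper-Pearson interval 2.90 to 4.10%) held at least 2 UMIs, summed over the 3 stress-response genes *Chac1*, *Trib3* and *Slc7a3*. Set against the GFP+ cells with none of these UMIs, these cells, called members here, had listed cone transcription factors at a summed level of 1.01 times, phototransduction genes at 0.906 times and 4 cone stage genes at 0.441 times. Genes that the transcription factor ATF4 is known to switch on stood at 5.97 times. Members were chosen from the counts themselves: every deposited GFP+ cell with a mitochondrial fraction under 0.25 was eligible, with no upper limit on the number of genes, and the raw UMIs of the 3 genes were summed in each cell. The members were compared with the 3457 GFP+ cells of the same library whose sum was 0, across all genes, and the 142 cells with a sum of 1 are given apart. The levels of the 3 genes therefore describe the choice and are not results, and since the same cells gave all other values too, these are descriptions without a test.

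The study sorted retinal cells of embryos that carry Tg(Lhx4::EGFP)KN199Gsat/Mmucd, a transgene in which regulatory sequence of *Lhx4*, a LIM homeobox gene of early cones, drives GFP. Retinas of GFP-positive embryos from 2 litters were pooled into 1 suspension at E14.5, a stage at which cones are being born, and the GFP+ and the GFP− cells were each made into 1 droplet library. No embryo received a drug or other treatment that the labels name, and both groups came from the same transgenic embryos, so no retina without the transgene serves as a control. A unique molecular identifier (UMI) was added to every captured transcript, so PCR copies are counted once. The depth was 16010591 UMIs for GFP+ and 46778924 UMIs for GFP− cells.

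With 1 library per gate there were no replicates. Levels were computed as UMIs per 1000000 UMIs of the summed cells (CPM), and a ratio is the CPM of the members over that of the cells with a sum of 0. Intervals are exact 95% intervals that cover counting error only, and no p-value was computed. The members' UMIs added up to 582554 and those of the cells with a sum of 0 to 14807677. Depth was alike: members had a median of 4117 UMIs (2158 to 10059) and 2028 genes per cell, against 3890 UMIs and 1921 genes. A gene with no UMI in members is bounded by 3 counts, which is 5.15 CPM. The libraries shared 20 cell barcodes, 1 of them among the members, and the doublet caller Scrublet marked 4 GFP+ cells, none of them a member.

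ATF4 is the main effector of the integrated stress response. Kinases that sense amino acid shortage, unfolded protein in the endoplasmic reticulum, missing heme or viral RNA phosphorylate the translation factor eIF2 alpha, protein synthesis slows, and the *Atf4* message is translated more. ATF4, often paired with C/EBP proteins, then binds composite elements in the promoters of genes for amino acid uptake, amino acid synthesis and tRNA charging, and of the factor CHOP (*Ddit3*), which can turn the response towards cell death. Of the genes that chose the cells, *Chac1* (chromosome 2, 119351242 to 119354326) encodes an enzyme that degrades glutathione, *Trib3* (chromosome 2, 152337425 to 152344060) a pseudokinase that holds back ATF4 and CHOP, and *Slc7a3* (X chromosome, 101079146 to 101090452) a transporter of cationic amino acids.

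Promoter sequence from RefSeq (GRCm38.p6, the build of the count files), 250 bases before to 50 after each start, was searched on both strands for TGATGNAA, the core of that composite element. It was present in 3.97% of the 32851 promoters. Of the 43 genes on the ATF4-pathway list and the rule genes with a promoter in the table, 17 held it (39.5%), as did 26 of 183 matched genes that were at least 2-fold higher in members (14.2%), 4 of 64 that were at least 2-fold lower (6.25%) and 138 of 5068 tested genes (2.72%). Windows around the match are given 5′ to 3′ on the gene's own strand, with every match in capitals (2 for *Slc7a11*, 1 on each strand). They are for a rule gene, for genes of transport, synthesis and transcription that stand out in the comparison, and for *Pck2* and *Herpud1*. A match to TGATGNAA on the opposite strand reads as its reverse complement. The window of *Hspa5*, a chaperone gene of the unfolded protein response, is shown because its level in members was near that in the other cells. Its capitals mark the element that ATF6 binds, CCAAT and, after 9 bases, CCACG. This element was found in 0.119% of all promoters and in 9 of 17 matched genes of the XBP1 and ATF6 list. It was in 0 of the 183 higher genes, 0 of the 64 lower genes and 13 of 5068 tested genes (0.257%). The 0 among the higher genes is near that share and says little of them. These are matches of letters, and binding was not measured.
*Chac1* (chr2:119351019-119351086, + strand): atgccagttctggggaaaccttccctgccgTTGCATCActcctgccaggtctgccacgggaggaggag
*Asns* (chr6:7693210-7693262, − strand): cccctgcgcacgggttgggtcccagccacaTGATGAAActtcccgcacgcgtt
*Atf3* (chr1:191183406-191183473, − strand): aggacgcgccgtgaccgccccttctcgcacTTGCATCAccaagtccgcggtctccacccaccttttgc
*Slc7a11* (chr3:50443642-50443709, − strand): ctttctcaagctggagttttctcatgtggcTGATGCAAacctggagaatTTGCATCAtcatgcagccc
*Pck2* (chr14:55540133-55540200, + strand): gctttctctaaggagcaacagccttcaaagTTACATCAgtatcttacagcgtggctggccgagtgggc
*Herpud1* (chr8:94386287-94386354, + strand): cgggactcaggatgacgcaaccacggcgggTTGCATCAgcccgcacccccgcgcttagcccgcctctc
*Hspa5* (chr2:34771995-34772073, + strand): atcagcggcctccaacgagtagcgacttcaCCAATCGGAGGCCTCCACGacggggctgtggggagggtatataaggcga

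The 3 rule genes overlapped only in part within the members. *Slc7a3* had a UMI in 104 of the 129 members (80.6%), *Chac1* in 74 (57.4%) and *Trib3* in 51 (39.5%). All 3 were seen in 15 members, *Chac1* with *Slc7a3* in 37, *Trib3* with *Slc7a3* in 23 and *Chac1* with *Trib3* in 10, and 29 members qualified on *Slc7a3* alone, 12 on *Chac1* alone and 3 on *Trib3* alone. Sums were low: 58 members had exactly 2 UMIs, 49 had 3 or 4 and 22 had 5 or more, up to 8. Each rule gene was also left out of the sum and read in the cells chosen by the other genes. These values use the genes of the rule, so they describe the choice and are no separate support for it. *Chac1* was at 143 CPM in 92 cells chosen by *Trib3* and *Slc7a3*, against 3.54 CPM where those were at 0, a ratio of 40.5 (27.6 to 59.7). The same ratio was 24.98 (15.4 to 40.1) for *Trib3* and 25.8 (19.2 to 34.4) for *Slc7a3*.

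The members' label as cones was checked against cone markers. *Gngt2*, a cone transducin subunit, had a UMI in 127 of 129 members (98.4%, 94.5 to 99.8%), against 95.5% of the cells with a sum of 0. *Otx2* and *Crx*, homeobox factors of photoreceptor fate, were seen in 97.7% and 91.5% of members and in 98.2% and 93.3% of cells with a sum of 0. In GFP− cells with a sum of 0, at a median of 9892 UMIs, *Gngt2* was seen in only 1.68% and *Crx* in 4.70%. These shares come from a separate library with little cone RNA, so the background of cone RNA in the GFP+ library was not measured. Thinned to 3000 UMIs per cell, which left out 6 members and 324 cells with a sum of 0, *Gngt2* was seen in 95.9% and 93.7%.

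Of the 8 cone transcription factors listed, 7 passed the minimum of 20 CPM for the mean of both groups, and 0 were 2-fold apart, where 3.71% of all tested genes were at least 2-fold higher and 1.34% at least 2-fold lower, so that this count says little of the list. Summed, the list was at 4921 CPM in members and 4888 CPM in cells with a sum of 0, a ratio of 1.01 (0.970 to 1.05). *Otx2* stood at 1.02 times the level (0.955 to 1.09), *Crx* at 1.02 (0.930 to 1.12) and *Thrb*, the thyroid hormone receptor of cones, at 0.968 (0.865 to 1.08). *Rxrg*, a retinoid receptor of early cones, was lower, at 177 against 248 CPM (0.712, 0.580 to 0.867). The phototransduction list summed to 3246 against 3582 CPM (0.906, 0.865 to 0.949), with 0 of 8 tested genes past 2-fold, near the same shares, and its genes were not even: *Gnat2*, the cone transducin alpha subunit, was at 0.582 (0.441 to 0.755), and *Pde6c*, the catalytic subunit of the cone phosphodiesterase, at 1.82 (1.18 to 2.69). *Pde6h* and *Rcvrn* had 0 UMIs in both groups.

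Other retinal types were rare. The rod genes *Nr2e3* and *Gnat1* had 0 UMIs in members, and *Nrl*, a rod factor, was at 27.5 CPM against 31.0 (0.886, 0.502 to 1.45). Of 2 tested rod genes *Gngt1*, the rod transducin gamma subunit, passed the minimum through the cells with a sum of 0 alone, at 13.7 against 42.1 CPM (0.326, 0.140 to 0.647), and the whole list summed to 65.2 against 107 CPM (0.610, 0.430 to 0.841). The amacrine and horizontal list summed to 5.15 CPM against 22.8, with 3 of 5 genes at 0, the endothelial list to 1.72 CPM and the erythroid list to 0, and of 6 immune genes only *C1qa* had a UMI in members (20.6 against 26.9 CPM). The progenitor list stood at 333 CPM in members and 343 in cells with a sum of 0, with none of its genes at 0. It was led by *Lhx2* in cells with a sum of 0 (98.2 CPM, against 94.4 in members) and by *Fgf15* in members (99.6 CPM), where most of the list came from a single cell. This cell held 118 UMIs of the list, where the next member held 3 and the median was 0, and it had 0 UMIs of *Gngt2*, *Otx2* and *Thrb*, 20 of *Ccnd1*, 81 of *Hist1h2ap* and 57 of the 58 *Fgf15* UMIs of all members. It met the rule with 2 UMIs, was the deepest member at 10059 UMIs, and was not marked as a doublet. By its markers 1 of the 129 members was not a cone, and it was kept in the sums: without it the counts below were 248 and 96 in place of 243 and 88.

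Across all genes, 243 of 6556 tested (3.71% of those tested) were at least 2-fold higher in members and 88 (1.34%) at least 2-fold lower. Of the 243, 106 were under 20 CPM in cells with a sum of 0, so they passed the minimum through the members and had to be higher, and of the 6197 genes at 20 CPM or more in those cells 137 were higher (2.21%). Likewise 39 of the 88 were under 20 CPM in members and had to be lower. Among the higher genes 57 reached 5-fold and 26 reached 10-fold, while 0.0809 was the median log2 ratio of all tested genes. The plot of levels in both groups shows most genes along the line of equality, with a cloud of ATF4-pathway genes far above it and a thinner band of abundant genes below it. Single cells weigh in some of these: with the member that held the most UMIs of a gene left out for that gene, 199 of the 243 stayed at least 2-fold higher. In that setting 155 genes were at least 2-fold lower, in place of 88. TMM factors, which centre the bulk of the genes, lowered every log2 ratio by 0.11 and gave 195 higher and 124 lower genes, so that ratios close to 2-fold cross it with the scaling.

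**Figure D1:**
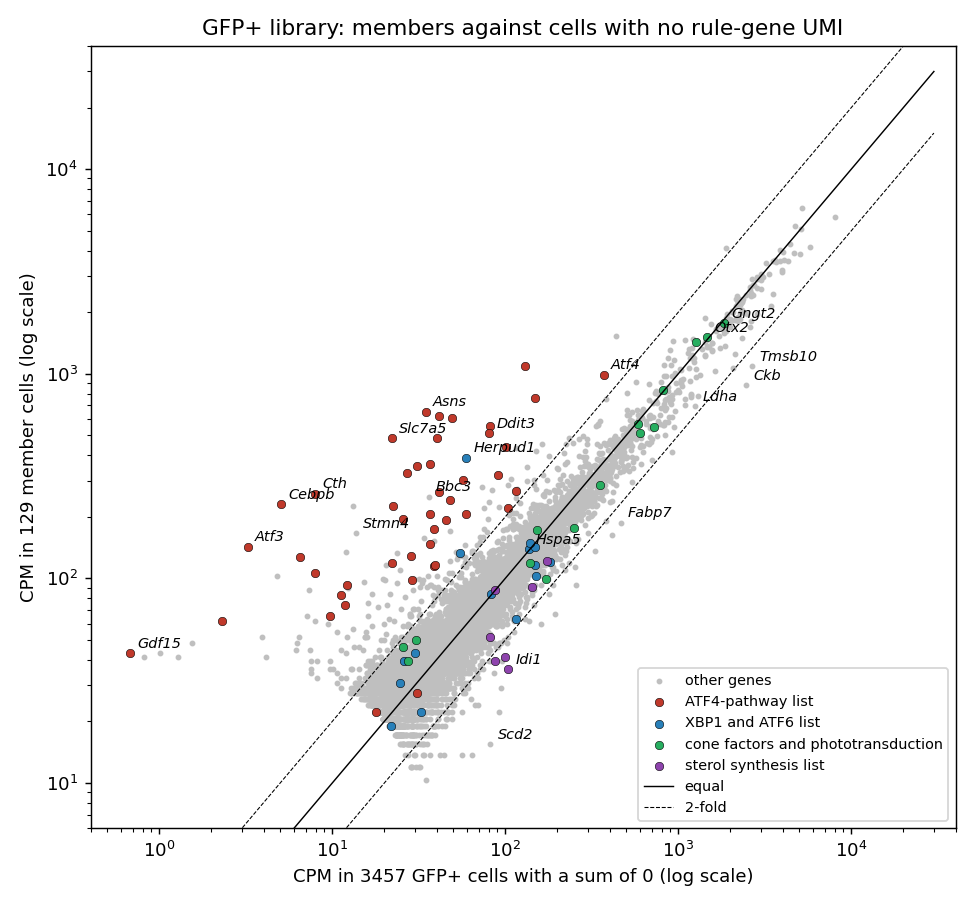
Level of each tested gene in the 129 members (y axis, CPM, log scale) against the 3457 GFP+ cells with a sum of 0 (x axis, CPM, log scale), 1 point per gene, with dashed lines at 2-fold. *Asns* stands at 652 against 34.7 CPM and *Ckb* at 877 against 2458 CPM, while *Gngt2* and *Otx2* lie near the line of equality.

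The ATF4-pathway list held 52 genes besides the rule genes. Of the 45 tested, 43 were at least 2-fold higher and 0 lower, where 3.71% of all tested genes were higher, and the median log2 ratio was 2.68 against 0.0809 over all genes. Of the 43, 11 were under 20 CPM in cells with a sum of 0 and had to be higher to be tested. The median includes them. Of the 33 at 20 CPM or more in cells with a sum of 0, 32 were higher. Summed, the list went from 2215 CPM in cells with a sum of 0 to 13216 CPM in members (5.97-fold, 5.82 to 6.12). The 2 exceptions were the tRNA synthetase genes *Vars* (1.25, 0.655 to 2.17) and *Wars* (0.892, 0.505 to 1.46). The remaining 7 genes were under the CPM minimum, among them *Aldh1l2* (16 UMIs in the 129 members and 12 in the 3457 cells with a sum of 0), and *Fgf21* had 0 UMIs in both groups.

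Of 6 tested transcription factors of the response, *Atf3* and *Cebpb* passed the minimum through the members alone, and the other 4 were all at least 2-fold higher, against 2.21% of the genes at 20 CPM or more in cells with a sum of 0. *Atf4* itself, whose product is controlled mainly at translation, was at 987 CPM in members and 371 in cells with a sum of 0 (2.66-fold, 2.44 to 2.90). Its dimer partners and targets were further apart. *Cebpb* was at 230 against 5.06 CPM (45.4-fold, 34.0 to 61.1) and *Atf3*, a repressor that ATF4 induces, at 142 against 3.24 CPM (44.0-fold, 30.4 to 64.1). *Ddit3* was at 513 against 80.7 CPM (6.36-fold, 5.58 to 7.23), with a UMI in 83.7% of members and 27.7% of the others. *Atf5* was 12.0-fold and *Cebpg* 5.33-fold higher.

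In amino acid transport and synthesis, *Asns*, asparagine synthetase, had a UMI in 95.3% of members and 10.5% of cells with a sum of 0. It stood at 652 against 34.7 CPM (18.8-fold, 16.4 to 21.5). *Slc3a2*, the heavy chain that carries several transporters to the membrane, reached 1090 CPM (8.43-fold), and its light chains *Slc7a5*, a transporter of large neutral amino acids, and *Slc7a11*, the cystine transporter, were 21.9-fold (18.6 to 25.7) and 26.9-fold (16.4 to 44.3) higher. At 20 CPM or more in cells with a sum of 0, all 4 transporters on the list and all 7 synthesis genes passed 2-fold, against the same 2.21%, and 4 further transporters, *Slc7a11* among them, and 2 further synthesis genes, *Cth* and *Gpt2*, were tested only because members were high. *Cth*, which makes cysteine, was the furthest apart of the synthesis genes, at 259 against 7.97 CPM (32.5-fold, 25.4 to 41.7), and *Phgdh*, the first enzyme of serine synthesis, was 12.2-fold higher. In mitochondrial one-carbon metabolism *Mthfd2* was at 623 against 41.5 CPM, with an interval of 13.1 to 17.1 for the ratio, and *Shmt2* was 11.5-fold higher (9.69 to 13.6).

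Cytosolic tRNA charging split by gene. Of 14 listed as ATF4 targets 12 passed 2-fold, against 3.71% of all tested genes, from *Aars* at 3.47-fold to the tRNA exporter *Xpot* at 7.58-fold. *Xpot* was tested only through the members, and of the 12 at 20 CPM or more in cells with a sum of 0, 11 passed, with *Gars* (6.78-fold, 5.97 to 7.67) and *Sars* (5.17-fold, 4.66 to 5.73) the most abundant. Of the 7 other synthetase genes 0 passed. The nearest was *Farsb* at 1.98 (1.48 to 2.60), and *Dars*, *Farsa*, *Kars* and *Qars* lay between 0.748 and 1.09. The ATF4 charging genes summed to 4.64-fold (4.42 to 4.86) and the other synthetases to 1.19-fold (1.05 to 1.35).

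Of the 8 listed genes that act back on the response or are secreted, 4 were at 20 CPM or more in cells with a sum of 0, and these 4 were at least 2-fold higher, against 2.21% of all such genes. *Gdf15*, a stress-induced cytokine, had a ratio of 63.5 (29.5 to 148), from 25 UMIs in 20 members and 10 in the cells with a sum of 0, and passed the CPM minimum through the members alone. *Eif4ebp1*, which restrains cap-dependent translation, was at 606 against 49.4 CPM (12.3-fold). *Ppp1r15a*, the inducible subunit that removes the phosphate from eIF2 alpha, was 3.39-fold higher (2.52 to 4.47).

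Which sensor was active cannot be read from transcripts, since the kinases are switched on as proteins. Among the 11 listed genes for eIF2 kinases, eIF2 and its exchange factor, 1 of 8 tested passed 2-fold, against 3.71% of all tested genes: *Eif2ak3*, the endoplasmic reticulum kinase PERK, at 132 against 23.6 CPM (5.59-fold, 4.31 to 7.18). The list does not hold every eIF2 gene. *Eif2s2*, an eIF2 subunit gene that is not on it, was at 1529 against 437 CPM (3.50-fold, 3.26 to 3.75). *Eif2ak4*, the amino acid sensor GCN2, was at 15.4 against 13.2 CPM (1.17, 0.529 to 2.27), and *Eif2ak1* and *Eif2ak2* were at 6.87 and 1.72 CPM in members.

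The plot of gene lists sets the ATF4 genes beside other stress pathways. The XBP1 and ATF6 list, the transcriptional arms of the unfolded protein response, had 2 of 15 tested genes at least 2-fold higher, against 3.71% of all tested genes, and a median log2 ratio of 0.03. These were *Herpud1*, a component of protein disposal at the endoplasmic reticulum, at 6.54-fold (5.63 to 7.58), and *Xbp1* at 2.40-fold (1.88 to 3.04). The chaperone genes were not among them. *Hspa5* was at 139 against 136 CPM (1.02, 0.808 to 1.28), *Hsp90b1* at 0.957 (0.759 to 1.19), *Calr* at 0.665 (0.517 to 0.843) and *Manf* at 0.554 (0.388 to 0.766).

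**Figure D2:**
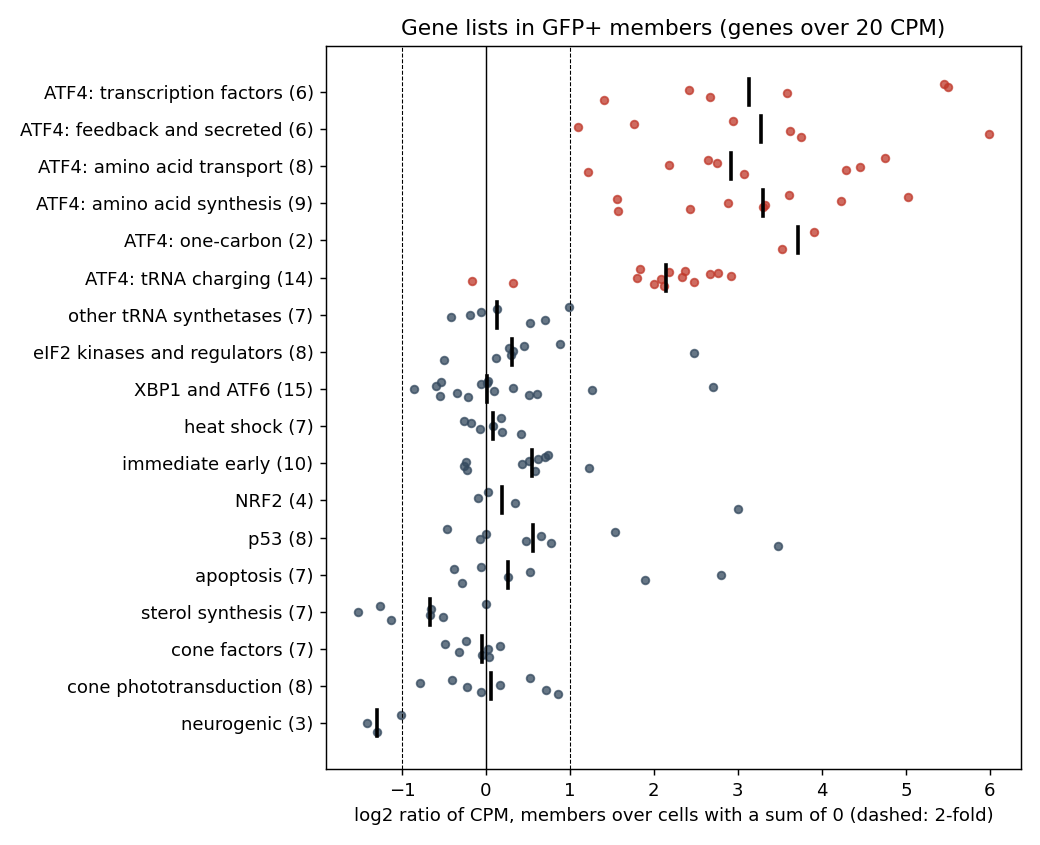
Log2 ratio of CPM, members over cells with a sum of 0, for each gene over 20 mean CPM (points) and the median of each list (bars), with the number of genes in brackets and dashed lines at 2-fold. The ATF4 groups lie to the right except *Vars* and *Wars*. The medians of other tRNA synthetases, XBP1 and ATF6, heat shock, cone factors and cone phototransduction lie around 0. In the XBP1 and ATF6 list *Herpud1* and *Xbp1* lie past 2-fold. The sterol and neurogenic lists lie to the left.

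Heat shock genes had 0 of 7 past 2-fold, with *Hspa8* at 1.14, and 1 of 10 tested immediate early genes passed, where 3.71% of all tested genes did, *Dusp1* at 2.35 (1.82 to 2.99), while *Fos* was at 0.833 (0.550 to 1.21) and *Jun* at 1.64 (1.42 to 1.88). The immediate early list was higher as a sum, at 2458 against 1647 CPM (1.49, 1.41 to 1.57). Of its 10 tested genes 7 were above a ratio of 1, where 3669 of all 6556 tested genes were. Its median log2 ratio was 0.57, against 0.0809 over all tested genes. Immediate early genes can be induced by tissue dissociation, and whether dissociation had a part in the values of members was not tested. Of the 3 NRF2 genes at 20 CPM or more in cells with a sum of 0, 0 passed, near the 2.21% of all such genes, with *Gclm* at 1.02, and *Hmox1*, heme oxygenase, which was tested only through the members, was 8.03-fold higher (5.14 to 12.2). *Hspa9*, the mitochondrial chaperone mortalin, was 3.76-fold higher (3.28 to 4.29), and 3 other mitochondrial protein quality genes lay between 0.887 and 1.49. Interferon genes were close to absent, 2 UMIs in all members.

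Among p53 targets, 2 of 8 were at least 2-fold higher, but both were under 20 CPM in cells with a sum of 0 and had to be higher to be tested, and of the other 6, 0 passed, against 2.21% of all genes at 20 CPM or more. The 2 were *Cdkn1a*, a cell cycle inhibitor, at 134 against 12.0 CPM (11.1-fold, 8.42 to 14.6) and *Phlda3* at 2.91 (1.68 to 4.76), while *Mdm2* stood at 1.39, *Zmat3* at 39.5 against 39.4 CPM and *Btg2* at 0.727. *Bbc3*, the BH3-only death activator PUMA, was at 251 against 36.1 CPM (6.94-fold, 5.74 to 8.34) and was seen in 59.7% of members. A further BH3-only gene, *Hrk*, was under the CPM minimum, with 14 UMIs in 12 members and 11 UMIs in the 3457 cells. The anti-apoptotic genes *Bcl2l1* and *Mcl1* were at 0.960 (0.782 to 1.17) and 0.767 (0.435 to 1.26). The share of UMIs from the mitochondrial genome, which is often high in dying cells, was lower in members, with a median of 1.95% per cell against 2.53%. All 12 tested mitochondrial transcripts were below a ratio of 1, where 2887 of all 6556 tested genes were. Of the 12, 0 passed 2-fold, near the 1.34% of all tested genes that were at least 2-fold lower. The mitochondrial list summed to 0.740 (0.726 to 0.754).

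Genes that are on no list made up 185 of the 243 higher and 75 of the 88 lower genes. The 10 with the highest ratios were *Trim66*, *Cyb5r2*, *Hhip*, *Serpinf1*, *Myo1c*, *Pck2*, *Creb5*, *Stmn4*, *Glipr2* and *A830010M20Rik*. All 10 were under 20 CPM in cells with a sum of 0 and passed the minimum through the members, so they had to be higher to be listed. *Trim66*, a chromatin reader, had 24 UMIs in 23 members and 12 UMIs in the cells with a sum of 0 (50.8-fold, 24.5 to 112). *Pck2*, the mitochondrial enzyme that makes phosphoenolpyruvate, was at 227 against 13.2 CPM (17.1-fold, 13.6 to 21.5), and its promoter window with TGATGNAA stands above. *Hhip*, which binds hedgehog ligands, was 32.1-fold higher (16.9 to 62.0), and *Serpinf1*, the secreted factor PEDF, 30.9-fold (17.2 to 56.2). *Myo1c*, a motor protein, came from 9 members, 1 of which gave 26 of its 60 UMIs, with a ratio of 21.5 (14.97 to 30.7) and of 12.3 without that cell. *Stmn4*, a stathmin that acts on microtubules in neurons, was at 167 against 13.6 CPM (12.2-fold, 9.48 to 15.6) and was detected in 30.2% of members and 3.07% of the others. With means of per-cell values its ratio was 17.9, and among cells with a *Gngt2* UMI 19.1.

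The next 4 genes are on no list and were picked after their values were seen. *Kif5c*, a kinesin heavy chain, was 6.27-fold higher (4.59 to 8.43), *Ntrk3*, a neurotrophin receptor, 7.65-fold (4.83 to 11.8), *Nrxn3*, a synaptic adhesion gene, 4.49-fold (3.39 to 5.88), and *Elavl4*, an RNA-binding protein of neurons, 2.13-fold (1.69 to 2.66). *Kif5c* and *Ntrk3* passed the minimum through the members alone. *Gap43*, a growth cone protein on the ganglion cell list, was at 77.2 against 32.6 CPM (2.37-fold, 1.70 to 3.22; 4.42-fold with means of per-cell values), and *Pou4f1*, a factor of that list, at 60.1 against 19.99 CPM (3.01-fold, 2.05 to 4.28), which also passed through the members alone. The rest of the list was at or near 0: *Isl1* had 0 UMIs in members and *Pou4f2*, *Rbpms* and *Sncg* 1 each, the whole list summing to 146 CPM against 90.4. Whether ganglion cell RNA had a part in *Gap43* or *Pou4f1* was not tested.

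The genes at least 2-fold lower included some of the most abundant of these cells. *Ckb*, brain creatine kinase, was at 877 CPM in members and 2458 in cells with a sum of 0 (0.357, 0.326 to 0.390), and *Tmsb10*, an actin-binding thymosin, at 1085 against 2653 CPM (0.409, 0.377 to 0.442). *Dbi*, which binds acyl-CoA esters, was at 66.9 against 195 CPM (0.344, 0.244 to 0.471). The lowest ratio among tested genes belonged to *Scd2*, a fatty acid desaturase, which was under 20 CPM in members, at 15.4 against 81.8 CPM (0.189, 0.0862 to 0.360), followed by the lysophosphatidic acid receptor *Lpar6* (0.215), *Pcp2* (0.243) and *Lasp1* (0.244). Sterol synthesis had 3 of 7 tested genes past 2-fold, all lower, against 1.34% of all genes: *Idi1* (0.348, 0.214 to 0.533), *Insig1* (0.416, 0.266 to 0.621) and *Sqle* (0.456, 0.288 to 0.687). *Cyp51* was at 87.5 against 87.1 CPM (0.744 to 1.33 for the ratio). *Ldha*, lactate dehydrogenase, was at 693 against 1253 CPM (0.553, 0.5001 to 0.611).

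All 3 tested of the 7 neurogenic genes, which mark recently born cells, were at least 2-fold lower, against 1.34% of all tested genes: *Dll3* (0.374, 0.260 to 0.522), *Atoh7* (0.409, 0.228 to 0.678) and *Hes6* (0.496, 0.408 to 0.599). *Hes6* lay at the threshold, at 0.515 with means of per-cell values and 0.547 in members with 5 or more rule-gene UMIs. The cone stage list summed to 282 against 639 CPM (0.441, 0.375 to 0.514), with 3 of 4 genes at least 2-fold lower, against 1.34% of all tested genes. Of the 3 genes at 20 CPM or more in members, 2 were lower, against 0.768% of all such genes. *Fabp7* was at 187 against 464 CPM (0.403, 0.330 to 0.487) and *Pcp4* at 0.470 (0.311 to 0.682). *Spint1*, which was under 20 CPM in members and had to be lower to be tested, was at 0.474 (0.226 to 0.879). *Fabp7* was seen in 31.0% of members and 41.7% of the others. The 109 UMIs of *Fabp7* in members were uneven, 30 of them in 1 cell, without which its ratio was 0.295. That cell is among the 22 members with 5 or more rule-gene UMIs, where *Fabp7* stood at 441 CPM (a ratio of 0.949, 0.684 to 1.28) with it and at 134 CPM (0.288, 0.149 to 0.503) without it. The tested cytosolic ribosomal protein genes had 0 of 84 past 2-fold and summed to 0.956 (0.9498 to 0.962).

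The remaining lists showed single genes apart or none. Autophagy had 0 of 9 tested genes past 2-fold, near the shares of 3.71% higher and 1.34% lower over all tested genes, with *Sqstm1*, a cargo receptor, at 1.46 (1.17 to 1.81) and *Map1lc3b* at 0.921. Of the 5 hypoxia genes at 20 CPM or more in cells with a sum of 0, 0 were 2-fold higher, near the 2.21% of all such genes. *Vegfa*, a growth factor for vessels that ATF4 can also induce, was tested only through the members, at 51.5 against 12.2 CPM (4.24-fold, 2.78 to 6.26), while *Bnip3* stood at 0.974 and *Pgk1* at 0.643. Of 8 listed non-coding genes whose transcripts are cleared by nonsense-mediated decay, 6 were not analysed here. *Snhg12* was at 271 against 83.9 CPM (3.23-fold, 2.72 to 3.82) and *Epb41l4aos* at 101 against 55.7 CPM (1.82-fold, 1.37 to 2.37). The dorsal factor *Tbx2* was at 0.482 (0.256 to 0.830) and the ventral factor *Vax2* at 0.974 (0.590 to 1.52). *Pcna*, the tested gene of the cell cycle list, was at 32.6 against 31.2 CPM, and the pigment epithelium list summed to 15.4 against 11.1 CPM, with 4 of 6 genes at 0 in members.

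The number of rule-gene UMIs set the members apart from cells on the other side of the threshold. Just inside it, at a sum of 2, the ATF4-pathway list was at 12080 CPM, and just outside, at a sum of 1, it was at 6520 CPM, against 2215 CPM at 0 and 16448 CPM at 5 or more. Per cell the list had medians of 19.4 UMIs per 10000 UMIs at a sum of 0, 62.3 at 1, 124 at 2, 129 at 3 or 4 and 162 at 5 or more. The groups overlapped: 83 of 3457 cells with a sum of 0 (2.40%) and 58 of 142 with a sum of 1 (40.8%) reached the 10th percentile of members, 68.7 UMIs per 10000. The members' median, 135 UMIs per 10000, was reached by 6 cells with a sum of 0 (0.174%) and by 10 with a sum of 1 (7.04%).

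**Figure D3:**
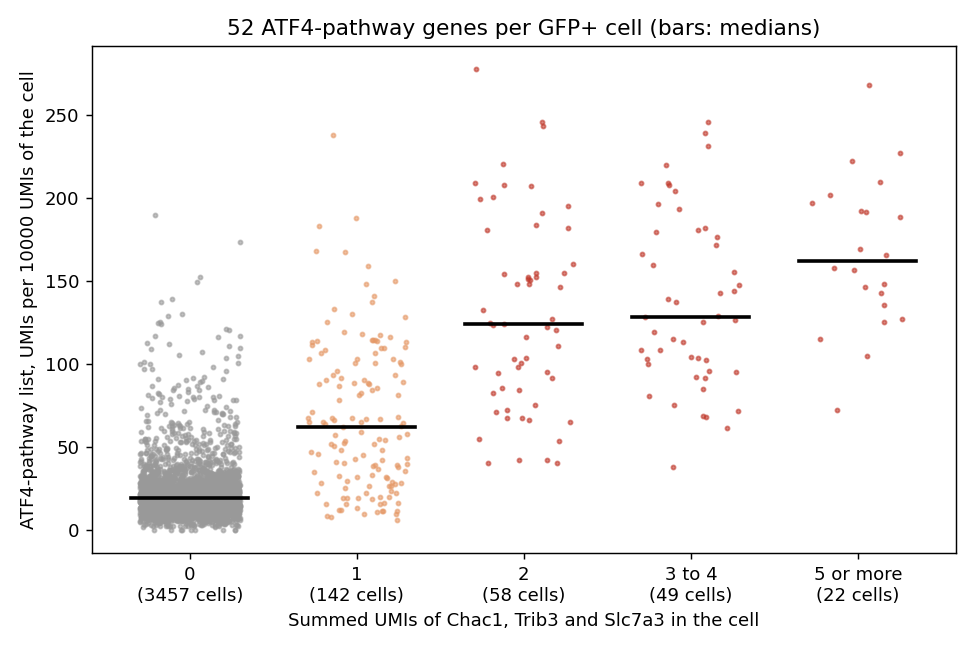
UMIs of the 52 ATF4-pathway genes per 10000 UMIs in each GFP+ cell (y axis), by the summed UMIs of *Chac1*, *Trib3* and *Slc7a3* (x axis), 1 point per cell with horizontal bars at the medians. Medians go from 19.4 at a sum of 0 to 162 at 5 or more, and the classes overlap.

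Single genes followed the classes in different ways. *Asns* went from 34.7 CPM at 0 to 279 at 1 and 646 at 2, and was then at 608 and 777 CPM. *Atf3* went from 3.24 to 21.0, 102, 151 and 231 CPM, and *Bbc3* from 36.1 to 126, 231, 224 and 367 CPM. *Otx2* stayed between 1323 and 1679 CPM in all 5 classes and *Hspa5* between 108 and 178 CPM. *Ckb* was lower in each class, from 2458 to 1438, 994, 893 and 525 CPM, and *Idi1* from 104 to 80.6, 43.1, 34.5 and 21.0 CPM.

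**Figure D4:**
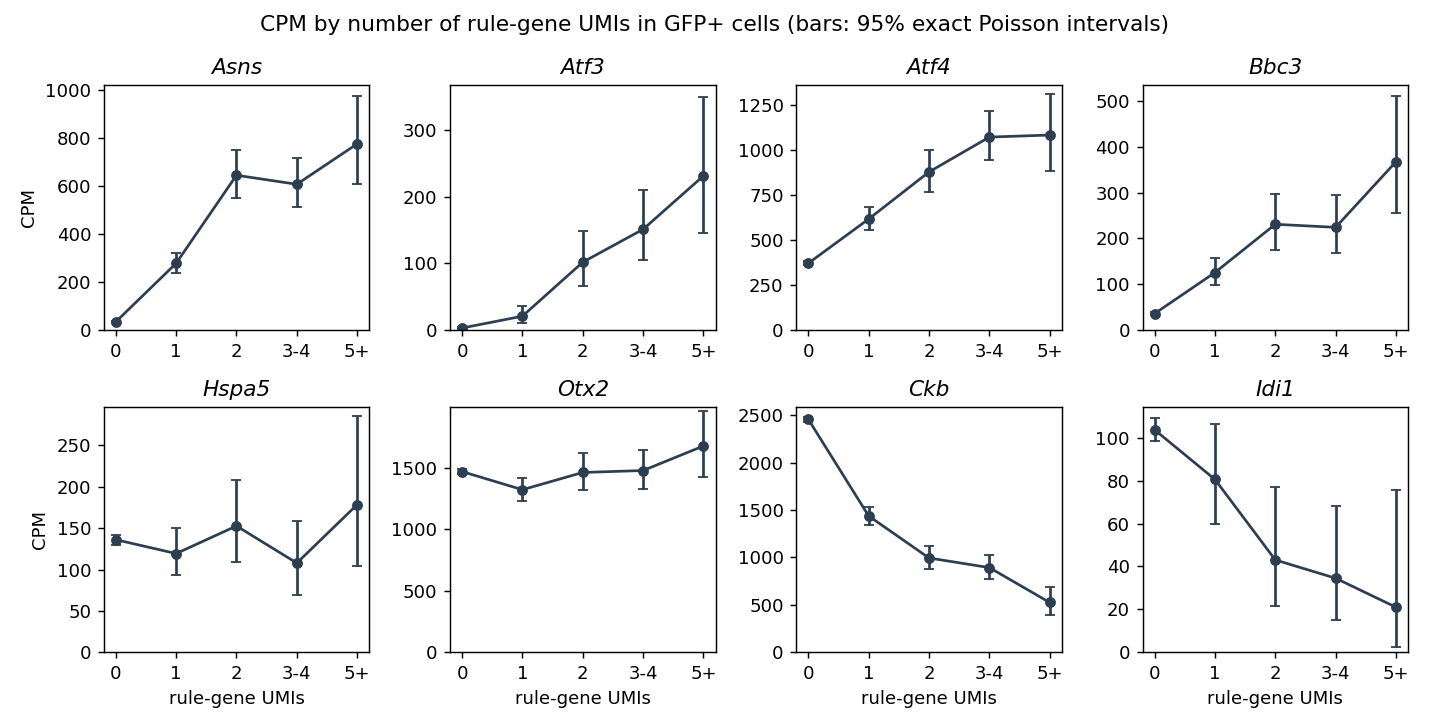
CPM of 8 genes (y axes, from 0) in GFP+ cells with 0, 1, 2, 3 to 4 and 5 or more rule-gene UMIs (x axes), with 95% exact Poisson intervals that cover counting error only. *Atf3* and *Atf4* are higher in each class with more rule-gene UMIs, *Asns* and *Bbc3* are higher at 5 or more than at 0 but slightly lower at 3 to 4 than at 2, *Ckb* and *Idi1* are lower, and *Otx2*, between 1323 and 1679 CPM, and *Hspa5*, between 108 and 178 CPM, show no order across the classes.

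Members that qualified on *Slc7a3* alone had the lowest level of the list. The 29 members with only *Slc7a3* had the ATF4-pathway list at 10045 CPM (9521 to 10591), against 14380 CPM (14001 to 14767) in the 85 members with at least 2 of the genes and 17349 CPM (16325 to 18421) in the 15 of these 85 that had all 3. The 12 members with only *Chac1* were at 12816 CPM (11879 to 13807) and the 3 with only *Trib3* at 14310 CPM (12337 to 16508), which overlaps the interval of the 85. *Asns* was at 614 CPM with *Slc7a3* alone, 668 CPM with at least 2 of the genes and 811 CPM with all 3, with overlapping intervals. *Atf3* was at 36.6 CPM (11.9 to 85.3) in members with *Slc7a3* alone, from 5 UMIs, at 148 CPM (64.0 to 292) with *Chac1* alone, from 8 UMIs, and at 174 CPM (135 to 222) in those with at least 2 genes. Carrying more genes also means more rule-gene UMIs, and the 2 were not separated.

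In the GFP− library the same rule took 89 of 4444 cells (2.00%, 1.61 to 2.46%), at a median of 9678 UMIs against 4117 in GFP+ members, and these were other cells. *Ccnd1*, a cyclin of progenitors, was seen in 98.9% of them and in 75.4% of GFP− cells with a sum of 0, while *Thrb* and all 12 listed phototransduction genes, *Gngt2* among them, had 0 UMIs. The rule counts raw UMIs, so in the deeper GFP− cells it was a looser cut relative to depth. The part of this in the shares of cells and in the ratios was not tested. Of the rule genes, whose values describe the choice, *Chac1* was seen in 79.8% of the GFP− members, *Trib3* in 65.2% and *Slc7a3* in 31.5%. In the same order they stood at 221, 115 and 369 CPM in GFP+ members, and at 145, 93.9 and 51.8 CPM in members of the GFP− library. There, 168 of 5625 genes (2.99%) were at least 2-fold higher and 284 (5.05%) at least 2-fold lower, and 30 of 39 tested ATF4-pathway genes were higher, with a summed ratio of 3.05. Of these 30, 10 were under 20 CPM in GFP− cells with a sum of 0 and had to be higher to be tested, and of the 29 at 20 CPM or more there 20 were higher, against 1.75% of all genes at that level. Of 4932 genes tested in both libraries, 43 were higher in both, which is 33.3% of the 129 GFP+ and 59.7% of the 72 GFP− calls. Of the 38 ATF4-pathway genes tested in both, 28 were at 20 CPM or more in the cells with a sum of 0 of each library, and for these 28 the ratio was larger in the GFP+ library, as it was for 2548 of all 4727 such genes. Of the other 10, *Sesn2* alone had the larger ratio in the GFP− library (18.2 against 7.67), where it was at 3.26 CPM in cells with a sum of 0. *Cth* was 32.5-fold higher in GFP+ and 4.92-fold in GFP− members, and *Asns* 18.8-fold and 7.52-fold, from 652 and 34.7 CPM in GFP+ cells.

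For several genes the ratios in the libraries lay far apart. *Bbc3* was at 6.94 in GFP+ and at 0.847 in GFP− members, and *Stmn4* at 12.2 and 0.379. *Cdkn1a* was at 11.1 and 0.983 and *Eif2ak3* at 5.59 and 0.278, but the GFP− values of these rest on 9 UMIs and 1 UMI in members. The GFP− cells with a sum of 0 are a mixture of progenitors and neurons while the members there carry progenitor transcripts, so a difference in cell type enters every GFP− ratio, and its part was not tested. The looser cut relative to depth in the GFP− cells applies to these ratios too, and its part was not tested. With 1 library per gate the difference between gates was not tested either.

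**Figure D5:**
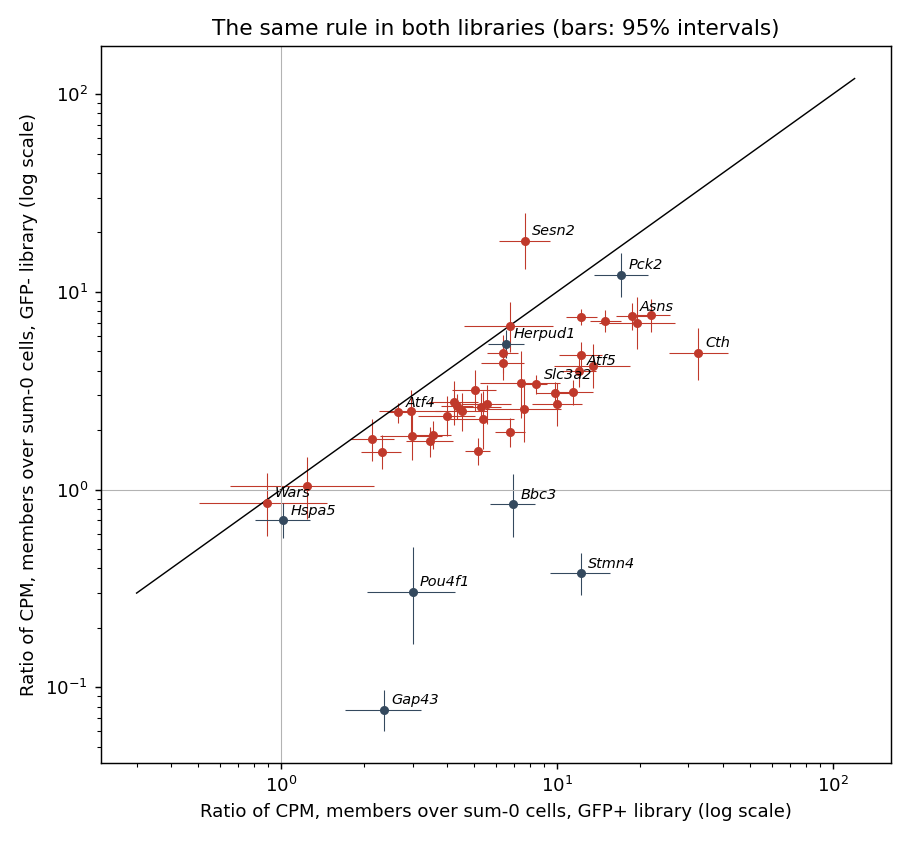
Ratio of CPM, members over cells with a sum of 0, in the GFP+ library (x axis, log scale) and the GFP− library (y axis, log scale) for 45 genes tested in both, with 95% intervals that cover counting error only; red points are ATF4-pathway genes, and the line marks equal ratios. Of the 45 genes, 38 of them on the ATF4-pathway list, 44 lie below the line and *Sesn2* lies above it. Over all 4932 genes tested in both, 2628 had the larger ratio in the GFP+ library. The rule was a looser cut relative to depth in the GFP− library, and the part of this in the ratios was not tested. *Stmn4*, *Gap43* and *Pou4f1* lie on opposite sides of 1 in the 2 libraries. Some of the 45, *Stmn4* among them, were tested in the GFP+ library only through the members.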

How the data were processed

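Single-cell RNA was measured in 1 GFP+ and 1 GFP− library from the same pooled retinas. The authors aligned the reads to mm10 (GRCm38) with Cell Ranger 2.1.1 and deposited UMI counts per gene and called cell, whole numbers that were not normalized. 1 GFP− cell and no GFP+ cell was removed by the mitochondrial limit of 0.25. Counts were summed over the cells of a class and scaled to 1000000 UMIs, and exact Poisson intervals were computed. Ratios carry exact conditional binomial intervals and shares Clopper-Pearson intervals, at a level of 95%, and all cover counting error only. A gene was tested for size where its mean CPM over both groups was at least 20. For list medians 0.5 was added to both sums. Cells were thinned to 3000 UMIs for detection. The genes named are the 25 highest and 15 lowest ratios, the 10 highest outside the lists and the list members. Members and lists were chosen with earlier results of these data known, so their direction is not independent evidence. Tools were Python 3.11.15, numpy 2.4.6, pandas 2.3.3, scipy 1.17.1, scanpy 1.11.5 (Scrublet, expected rate 0.03), R 4.3.3 and edgeR 4.0.16 (TMM). The interval calculation was tested on simulated data. Results for some genes are not reported here.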

Additional observations from a re-analysis of the deposited data

Results flagged for a closer look

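Genes of the report past 2-fold in opposite directions in the libraries, each with 1 sample, and at a mean of 20 CPM or more in both, were *Stmn4*, *Gap43*, *Pou4f1*, *Kif5c* and *Elavl4*, the last pair picked after their values were seen. Of 4932 genes tested in both libraries, 129 were at least 2-fold higher in the GFP+ and 231 at least 2-fold lower in the GFP− library. Genes outside the report were in both sets, so the named genes are only a part of such genes. Among these others were *Dusp26* (2.74 and 0.0496), *Nhlh2* (2.06 and 0.0382), *Islr2* (2.14 and 0.0577), *Gng3* (2.90 and 0.157) and *Uchl1* (2.16 and 0.193). *Id2*, also outside the report, went the other way (0.440 and 2.25). *Stmn4*, *Pou4f1* and *Kif5c* were under 20 CPM in GFP+ cells with a sum of 0, so they passed that minimum through the members and had to be higher there, and *Pou4f1* was under 20 CPM in GFP− members and had to be lower in that library. The difference between the libraries was not tested. *Eif2ak3*, at 5.59 and 0.278, was under that minimum in the GFP− library, with 1 UMI in members. *Stmn4* had a ratio of members to cells with a sum of 0 of 12.2 in the GFP+ and 0.379 in the GFP− library, *Gap43* of 2.37 and 0.0771, *Pou4f1* of 3.01 and 0.304, *Kif5c* of 6.27 and 0.281, and *Elavl4* of 2.13 and 0.0907. In the GFP− library 98.9% of members and 75.4% of cells with a sum of 0 had a UMI of the progenitor gene *Ccnd1*, against 2 of 129 and 173 of 3457 cells in the GFP+ library, and the part of this in the values was not tested.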

How the results depend on the processing

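No paired analysis was possible because each gate has 1 library, and no replicate could be left out. The count of ATF4-pathway genes at least 2-fold higher lay between 38 and 48 under every alternative, with 0 lower, and the list's median log2 ratio between 2.57 and 2.95, the latter for members with 5 or more rule-gene UMIs. The count and the median of this list include genes that passed the CPM minimum through the members alone. The counts over all genes moved with the settings. Higher and lower genes, 243 and 88 as reported, numbered 407 and 211 at a mean CPM of 10, 125 and 31 at 50, 6227 and 617 with no filter, 767 and 395 at 1.5-fold, 105 and 8 at 3-fold, 379 and 196 with *Slc7a3* left out of the sum, and 944 and 533 for members with 5 or more UMIs, a class of 22 cells. Lower genes numbered 134 in thinned cells, 147 for members with 3 or more UMIs and 155 with the top member of each gene left out (added after seeing the data). The share of GFP+ cells that met the rule was 7.27% at 1 or more UMIs, 1.90% at 3 or more, 0.590% at 5 or more and 2.78% in thinned cells. Of 646 values for 34 named genes, 588 stayed within the counting interval of the value reported. Settings that changed only the CPM minimum or the fold, or took the filter away, leave these ratios as they are. Their values could not move, so the 588 overstate how stable the ratios were. Leaving out the member with the progenitor transcripts, or the cells with a sum of 0 that reached the members' 10th percentile (both added after seeing the data), gave 248 and 243 higher genes. With few members, low genes rest on few molecules, and nothing here measures the spread between retinas or sorts.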
